A study of Mus musculus with 15 samples.

Results

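The cytosolic aminoacyl-tRNA synthetases and the amino acid and stress genes that the transcription factor ATF4 is known to control were examined in whole ovaries of HSD17B1-KI and WT mice. The 34 genes were taken by symbol from the 27907 genes of the table, and all of them were found. They comprise 20 genes of cytosolic synthetases and 14 genes of amino acid transport, amino acid synthesis and stress regulation, and all 34 passed the filter on low values, which 21525 genes passed. The choice used gene names and no measured value of the 15 mice, although it was made with earlier results of these mice known.

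HSD17B1 converts estrone to estradiol and is expressed in granulosa cells of growing follicles. The 7 HSD17B1-KI females (HSD17B1 Ser143Ala) were homozygous for a germ line change of a serine to alanine in the active site of the enzyme, and the 8 WT females came from the same breeding of heterozygous mutants. All were 6 months old and in estrus, with 1 mRNA library per mouse. The change is a point mutation, so that the Hsd17b1 transcript does not check the labels. It stood at 5459, 10914 and 17386 normalized counts in the lowest, the median and the highest HSD17B1-KI mouse and at 6480, 7672 and 14111 in WT.

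Aminoacyl-tRNA synthetases load each amino acid onto its tRNA and so supply the ribosome. When amino acids are scarce or unfolded proteins burden the endoplasmic reticulum, kinases phosphorylate the translation factor eIF2, most translation slows and the ATF4 protein accumulates. ATF4, paired with a C/EBP family protein, binds C/EBP-ATF response elements and raises the transcription of synthetases, amino acid transporters, serine and asparagine synthesis enzymes and the stress regulators Ddit3, Trib3, Chac1 and Sesn2. ATF4 itself is controlled mainly at translation, which mRNA levels do not show. In the ovary, the growing oocyte receives amino acids in part from the granulosa cells around it.

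The letters of the C/EBP-ATF response element core, TGATGNAA, were searched on both strands of RefSeq promoter windows of build GRCm38.p6, which run from 250 bases before to 50 bases after a transcription start. The windows of 24 of the 34 genes are described here, and those of Cars, Hars, Lars, Mars, Nars, Rars, Vars, Wars and Slc7a5 were not in the table. The core was found in 8 of these 24 genes (33.3%), while it was found in 4.51% of 27025 genes and in 3.97% of their 32851 windows. The sites are shown because they mark which of the genes carry the letters of the ATF4 element close to the start, among them Yars and Trib3 but also Iars, Asns and Slc7a11, whose expression is set beside them below. Each line gives 30 bases, 5′ to 3′ on the strand of the gene, with the core or its reverse complement in capitals.
Gars (chr6:55037960-55037989, + strand): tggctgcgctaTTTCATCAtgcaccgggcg
Iars (chr13:49682126-49682155, + strand): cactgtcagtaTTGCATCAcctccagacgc
Tars (chr15:11399655-11399684, - strand): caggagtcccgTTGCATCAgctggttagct
Yars (chr4:129189895-129189924, + strand): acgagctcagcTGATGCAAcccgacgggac
Asns (chr6:7693214-7693243, - strand): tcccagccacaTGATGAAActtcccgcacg
Chac1 (chr2:119351038-119351067, + strand): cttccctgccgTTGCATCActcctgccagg
Trib3 (chr2:152344028-152344057, - strand): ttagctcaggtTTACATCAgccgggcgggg
Slc7a11 (chr3:50443661-50443690, - strand): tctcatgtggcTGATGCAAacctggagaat
Slc7a11 (chr3:50443642-50443671, - strand): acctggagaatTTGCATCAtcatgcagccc
In Asns, Yars and the first Slc7a11 line the core reads along the gene, and in the other lines it is the reverse complement. Slc7a11 holds 2 cores. Counted from the transcription start, with the first transcribed base as 1 and the base before it as -1, the core of Chac1 begins at -193, the first core of Slc7a11 at -66 and that of Gars at -30.

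The letters of the antioxidant response element core, TGACNNNGC, were found in 5 of the 24 genes (20.8%), namely Iars, Asns, Sesn2, Phgdh and Psph, beside 13.99% of all genes and 12.4% of all windows. No core of one kind overlapped a core of the other in these genes. Sesn2 held none of the first kind in its window and 1 of the second, which begins at -36.
Sesn2 (chr4:132510474-132510503, - strand): ccgcagcgggcTGACAGAGCcgggcgagcg
A match is a description of the letters and does not show that a factor binds there.

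Expression was given as normalized counts, which are the reads counted on a gene divided by 1 size factor per library. Library totals lay between 39092867 and 69972608 reads on genes in HSD17B1-KI and between 26544745 and 72362981 in WT. Every one of the 34 genes therefore had at least 16 reads in every mouse. The genotypes were compared on log2(normalized count + 1) with limma-trend over the 21525 genes, two-sided, and a gene was called DE at a Benjamini-Hochberg adjusted p under 0.05. The same table was also tested with edgeR and DESeq2 on the whole reads recovered from it. Among all genes, the median log2 fold change (HSD17B1-KI over WT) was -0.02, and 44.8% of genes were above 0.

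With limma-trend, 0 of the 34 genes were DE, while 0.209% of all genes were DE and higher and 0.00465% DE and lower. An unadjusted p under 0.05 was found for 5 genes higher in HSD17B1-KI (Aars, Yars, Sesn2, Slc7a5 and Slc3a2), beside 5.36% of all genes, and for 2 lower (Iars and Vars), beside 4.64% of all genes. The count of lower genes was thus close to the background. edgeR called 0 of the 34. DESeq2 called 4 higher (Aars, Sesn2, Slc7a5 and Slc3a2) and 0 lower, beside 1.59% and 0.718% of the 19790 genes with an adjusted p. With all mice, these 4 are the only members called after adjustment, and that call depends on the test. When WT 6 was left out, DESeq2 also called Yars (adjusted p = 0.0469).

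**Figure D1:**
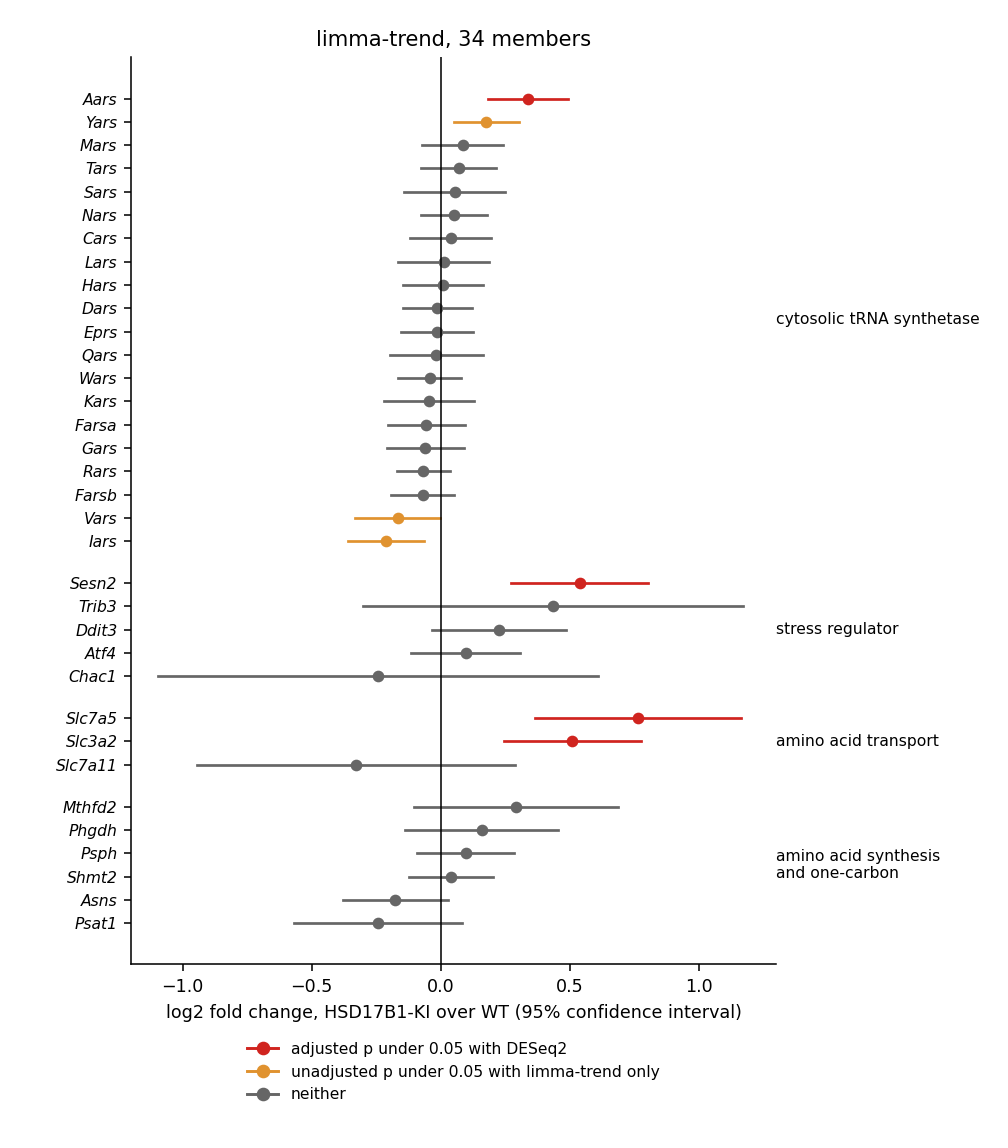
Log2 fold changes of HSD17B1-KI over WT for the 34 genes (x axis) with 95% confidence intervals from limma-trend, 7 against 8 mice, ordered by value within each group of genes (y axis). Of 20 synthetases, 16 lie within 0.1 of 0, and the 4 genes in red, Aars, Sesn2, Slc7a5 and Slc3a2, are those called by DESeq2.

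Aars encodes the alanyl-tRNA synthetase and lies on chr8:111033144-111057664 (GRCm38, + strand). It had 8881, 10703 and 12640 normalized counts in the lowest, the median and the highest HSD17B1-KI mouse and 7843, 8409 and 9421 in WT. Of the 7 HSD17B1-KI mice, 6 were above all WT mice, and only HSD17B1-KI 5 was within their range. The mean was 10872 ± 1262 (SD, n = 7) against 8570 ± 616 (SD, n = 8), a ratio of 1.27. With a standard error of 0.07, the log2 fold change was 0.34, and its adjusted p was 0.0780 with limma-trend and 0.00256 with DESeq2. Over all alternatives but the replicate block, which is described below, the adjusted p ranged from 1.87e-05 to 0.252. The gene overlaps Exosc6 on the same strand and Gm24103 on the opposite strand in the annotation, neither of which is in the table. Reads of Exosc6 may therefore not be told apart from those of Aars.

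The other synthetases did not follow Aars. Of the 20, 9 had a log2 fold change above 0 and 11 below, with a median of -0.01, which is close to that of all genes. Their log2 fold changes were within 0.1 of 0 in 16 and within 0.2 in 18. The 95% confidence intervals of these 16 lay between -0.22 and 0.25, which bounds the change of each of them.

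Yars encodes the tyrosyl-tRNA synthetase. Its lowest, median and highest HSD17B1-KI mouse had 3227, 3507 and 3772 normalized counts, and those of WT had 2607, 3178 and 3443. The mean of WT was exceeded by 7 of 7 HSD17B1-KI mice and its highest value by 4. The log2 fold change was 0.18 ± 0.06 (SE), with an adjusted p of 0.288 with limma-trend and 0.107 with DESeq2. The gene overlaps C77080 on the opposite strand, and whether the reads were counted by strand is not given in the sources used here.

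Iars and Vars, which charge the tRNAs of isoleucine and valine, had the lowest fold changes of the 20. Iars stood at 3549, 4170 and 4620 normalized counts in HSD17B1-KI and at 4270, 4672 and 5444 in WT, so that 5 of the 7 HSD17B1-KI mice were below all WT mice. Its log2 fold change was -0.21 ± 0.07 (SE), with an adjusted p of 0.272 with limma-trend and 0.111 with DESeq2. Vars stood at 3895, 4531 and 5394 normalized counts in HSD17B1-KI and at 4734, 4990 and 5930 in WT. All WT mice were above 4 of the HSD17B1-KI mice, and 1 HSD17B1-KI mouse was above the mean of WT. The log2 fold change of Vars was -0.17 ± 0.08 (SE), with an adjusted p of 0.496 with limma-trend and 0.377 with DESeq2. Neither gene passed a test after adjustment.

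The remaining 16 synthetases had log2 fold changes from -0.07 (Rars and Farsb, which charge arginine and phenylalanine tRNAs) to 0.09 (Mars, for methionine). Their adjusted p with limma-trend was 0.694 or higher. Eprs, which charges both glutamate and proline tRNAs with 1 protein, had means of 8448 ± 424 (SD, n = 7 HSD17B1-KI) and 8560 ± 843 (SD, n = 8 WT), and Lars, the leucyl enzyme that also acts as a leucine sensor for mTORC1, had 3615 ± 220 and 3611 ± 512. Farsa and Farsb encode the subunits of 1 enzyme and had log2 fold changes of -0.06 and -0.07. Mars, Hars and Farsb overlap Ddit3, Hars2 and Sgpp2 on the opposite strand, so that reads of the partners may not be told apart.

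Per kb of exonic sequence, the synthetases ranged from 288 normalized counts (Cars) to 1517 (Nars, the fourth of the 34 genes in level). The order below Nars was Gars (1460), Kars (1382), Dars (1218), Hars (1158), Rars (1149), Qars (1122), Aars (1039), Mars (1018) and Sars (1018). Aars stood at 1171 per kb in HSD17B1-KI and 923 in WT. Its place in this order depends on the annotated exonic length, which was 9.282 kb for Aars and 4.355 kb for Nars. How much of that length the ovarian mRNA holds was not tested. Before division by length, Aars had the highest mean of the synthetases over all mice. This was 9644 normalized counts, beside 8508 for Eprs and 6608 for Nars.

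**Figure D2:**
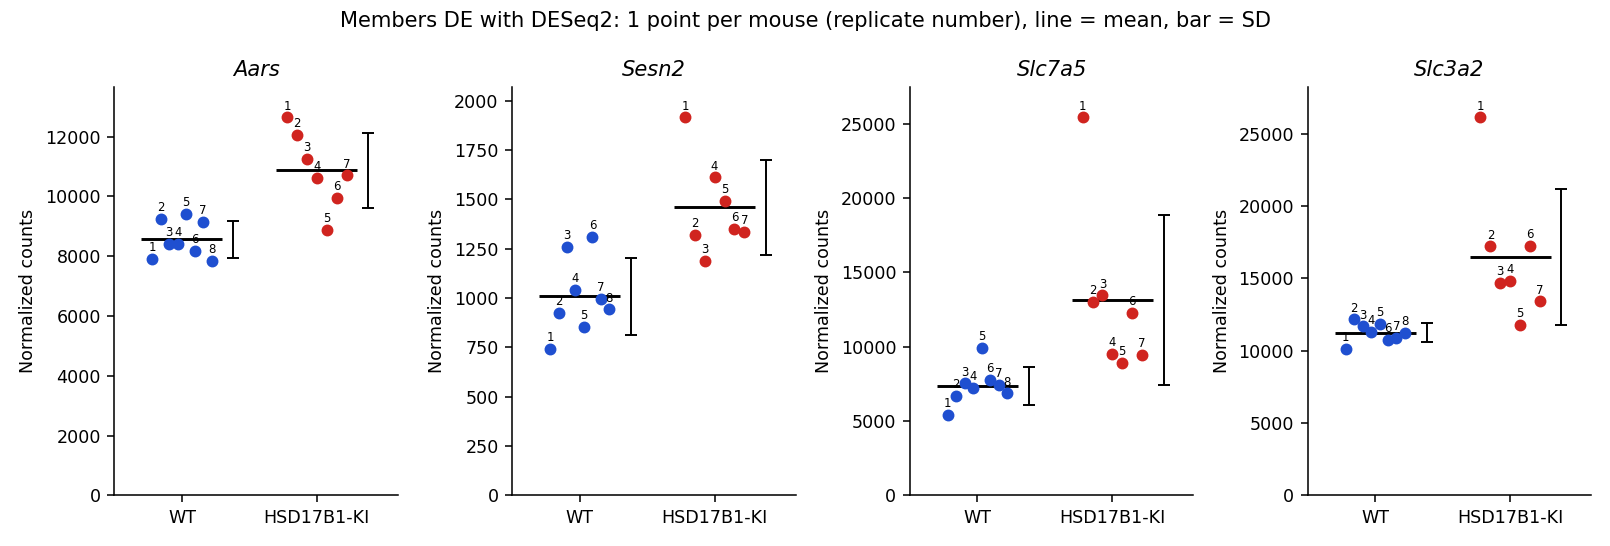
Normalized counts (y axis, from 0) of Aars, Sesn2, Slc7a5 and Slc3a2 in 8 WT and 7 HSD17B1-KI mice, with 1 numbered point per mouse, the mean as a line and the SD as a bar. Mouse 1 is the highest HSD17B1-KI mouse in all 4 genes, and the points of HSD17B1-KI 5 lie within the WT range except in Sesn2.

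Slc7a5 and Slc3a2 encode the light and heavy chains of LAT1, the exchanger that brings leucine and other large neutral amino acids into the cell. Slc7a5 (chr8:121881150-121907694, - strand) had 8891, 12255 and 25436 normalized counts in the lowest, the median and the highest HSD17B1-KI mouse and 5414, 7325 and 9911 in WT. The highest WT mouse was exceeded by 4 HSD17B1-KI mice, and HSD17B1-KI 4, 5 and 7 were below it. The means were 13143 ± 5731 (SD, n = 7) and 7354 ± 1262 (SD, n = 8), a ratio of 1.79 that was 1.51 without HSD17B1-KI 1. The log2 fold change was 0.76 ± 0.19 (SE), with an adjusted p of 0.110 with limma-trend and 0.00659 with DESeq2. Over all alternatives but the replicate block, the adjusted p ranged from 0.00143 to 0.322.

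Slc3a2 (chr19:8706882-8723369, - strand) had 11762, 14842 and 26113 normalized counts in the lowest, the median and the highest HSD17B1-KI mouse. In WT it had 10144, 11266 and 12152, the narrowest spread of the 4 genes called by DESeq2, with a coefficient of variation of 5.78%. All WT mice were below 6 of the 7 HSD17B1-KI mice. The ratio of the means was 1.46, or 1.32 without HSD17B1-KI 1. The log2 fold change of Slc3a2 was 0.51 ± 0.13 (SE), with an adjusted p of 0.110 with limma-trend and 0.00849 with DESeq2. The adjusted p ranged from 0.000504 to 0.302 over all alternatives but the replicate block.

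Per kb, Slc3a2 had the highest level of the 34 genes with 3876 normalized counts, and Slc7a5 was the third with 2712. Slc7a5 stood at 3545 per kb in HSD17B1-KI and 1983 in WT, and Slc3a2 at 4666 and 3186. The heavy chain was therefore higher per kb than this light chain in both genotypes.

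Sesn2 encodes Sestrin 2, a leucine sensor that restrains mTORC1 (chr4:132492032-132510501, - strand). It had 1188, 1349 and 1914 normalized counts in the lowest, the median and the highest HSD17B1-KI mouse and 742, 968 and 1311 in WT. Again 6 of 7 HSD17B1-KI mice were above all WT mice, and HSD17B1-KI 3 was below 2 of them. The ratio of the means was 1.45 and the log2 fold change 0.54 ± 0.13 (SE). Its adjusted p was 0.0920 with limma-trend and 0.00846 with DESeq2, ranging from 0.00139 to 0.267 over all alternatives but the replicate block.

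The call of these 4 genes by DESeq2 did not depend on a single mouse. It was made in 15 of 15 analyses that each left out 1 mouse, and without HSD17B1-KI 1 the adjusted p with DESeq2 was 0.0105 for Aars, 0.0331 for Sesn2, 0.00505 for Slc7a5 and 0.00177 for Slc3a2. Without HSD17B1-KI 1 their log2 fold changes with limma-trend were 0.30, 0.47, 0.59 and 0.39. With limma-trend, Aars and Slc3a2 were DE only when HSD17B1-KI 5 was left out, with adjusted p of 0.0179 and 0.0344. Leaving out both WT 1 and WT 8, which are described below, kept Aars with DESeq2 (adjusted p = 0.0388), whereas Sesn2 (0.0596), Slc7a5 (0.0540) and Slc3a2 (0.0596) no longer passed. Their log2 fold changes with DESeq2 stayed of similar size, at 0.46, 0.76 and 0.53 without these mice beside 0.53, 0.84 and 0.55 with all.

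The other stress regulators did not pass a test. Atf4 had 7032, 7693 and 11045 normalized counts in HSD17B1-KI and 6516, 7508 and 8784 in WT, and its log2 fold change of 0.10 was 0.02 without HSD17B1-KI 1. Ddit3, which encodes the stress transcription factor CHOP, had 1253, 1688 and 2091 against 1191, 1376 and 2111. The highest WT value was that of WT 3, and the next WT mouse had 1513. The mean of WT was exceeded by 6 of 7 HSD17B1-KI mice. The log2 fold change of Ddit3 was 0.23 ± 0.12 (SE), with an adjusted p of 0.568 with limma-trend. Leaving out 1 mouse at a time gave 0.17 to 0.32 with DESeq2, with adjusted p from 0.0750 to 0.659.

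Trib3 encodes a pseudokinase that dampens ATF4 activity, and its values rested on a single mouse. HSD17B1-KI 1 had 796 normalized counts, while the other HSD17B1-KI mice had between 112 and 190 and WT between 98.7 and 221. For Trib3, the log2 fold change was 0.43 with limma-trend and 0.75 with edgeR, and it was 0.05 with DESeq2, which replaced the outlying count. Without HSD17B1-KI 1 it was 0.09 with limma-trend. Chac1, which degrades glutathione, was the gene with the lowest level per kb of the 34 and had 17.6, 34.5 and 103 normalized counts in HSD17B1-KI and 23.1, 41.8 and 91.6 in WT. Its log2 fold change of -0.24 had a standard error of 0.40, and its 95% confidence interval from -1.09 to 0.61 includes changes of either direction.

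The enzymes of serine, glycine and asparagine synthesis gave no call. Phgdh, Psat1 and Psph catalyse the successive steps from 3-phosphoglycerate to serine, and their log2 fold changes were 0.16, -0.24 and 0.10. Shmt2 and Mthfd2, which pass the carbon of serine into the mitochondrial folate pool, had 0.04 and 0.29. Psph overlaps Cct6a and Shmt2 overlaps Ndufa4l2 on the opposite strand. Asns, the asparagine synthetase, had -0.18 ± 0.10 (SE) and exceeded the mean of WT in 1 of 7 HSD17B1-KI mice, with an adjusted p of 0.578 with limma-trend. Mthfd2 was another gene in which HSD17B1-KI 1 stood apart, with 2665 normalized counts beside 889 to 1281 in the other HSD17B1-KI mice and 836 to 1485 in WT. The lowest adjusted p of the 6 enzymes with limma-trend was that of Asns.

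The mean score of the 20 synthetases, which averages their log2 values centred on the mean of the 15 mice, was 0.0019 ± 0.055 (SD, n = 7 HSD17B1-KI) and -0.0017 ± 0.085 (SD, n = 8 WT). The difference was 0.0035, and it was -0.015 without HSD17B1-KI 1. The 14 amino acid and stress genes had a score of 0.083 ± 0.319 in HSD17B1-KI and -0.072 ± 0.090 in WT. Their difference was 0.15 with all mice and 0.04 without HSD17B1-KI 1, since this mouse had a score of 0.77 and the next of its group 0.10. The median log2 fold change of the 14 genes was 0.13, with 10 above 0, and it was 0.06 without this mouse. Scores are given as a description, with no test.

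**Figure D3:**
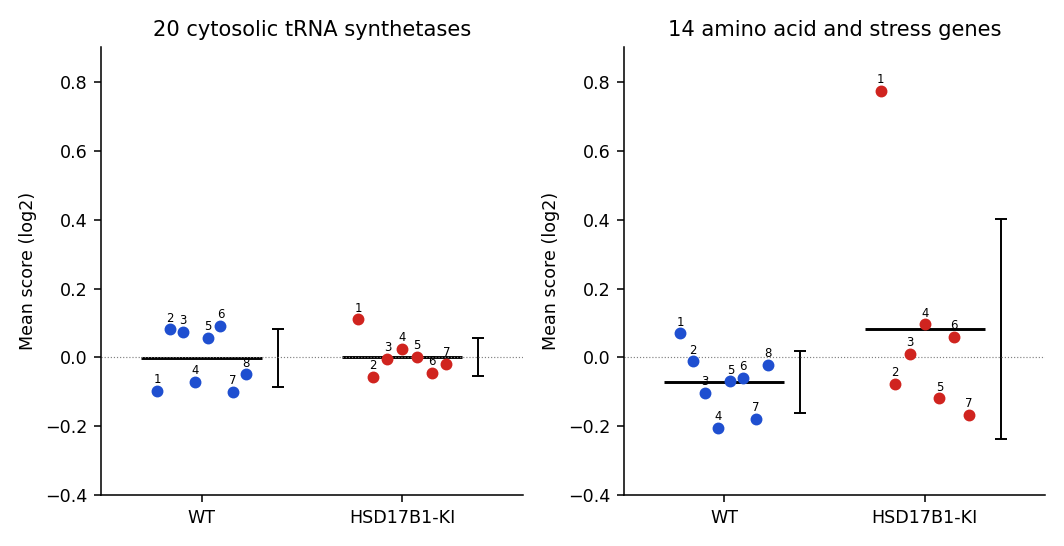
Mean score (y axis, log2 scale, centred on the 15 mice) of the 20 cytosolic tRNA synthetases and of the 14 amino acid and stress genes in 8 WT and 7 HSD17B1-KI mice, with 1 numbered point per mouse, the mean as a line and the SD as a bar. The synthetase scores of both genotypes lie between -0.10 and 0.11, and on the right only HSD17B1-KI 1, at 0.77, stands far from the other mice.

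HSD17B1-KI 1 was the highest of the 15 mice in 16 of the 34 genes. These were 10 of the 14 amino acid and stress genes and 6 of the 20 synthetases. The next mouse in this count, WT 3, was the highest in 4 genes. The exceptions among the 14 were Ddit3, Asns, Slc7a11 and Psat1. Within its own group, HSD17B1-KI 1 was also the highest in Asns (1238 normalized counts), Slc7a11 (490) and Psat1 (1242). Ddit3 was highest of that group in HSD17B1-KI 4 (2091).

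**Figure D4:**
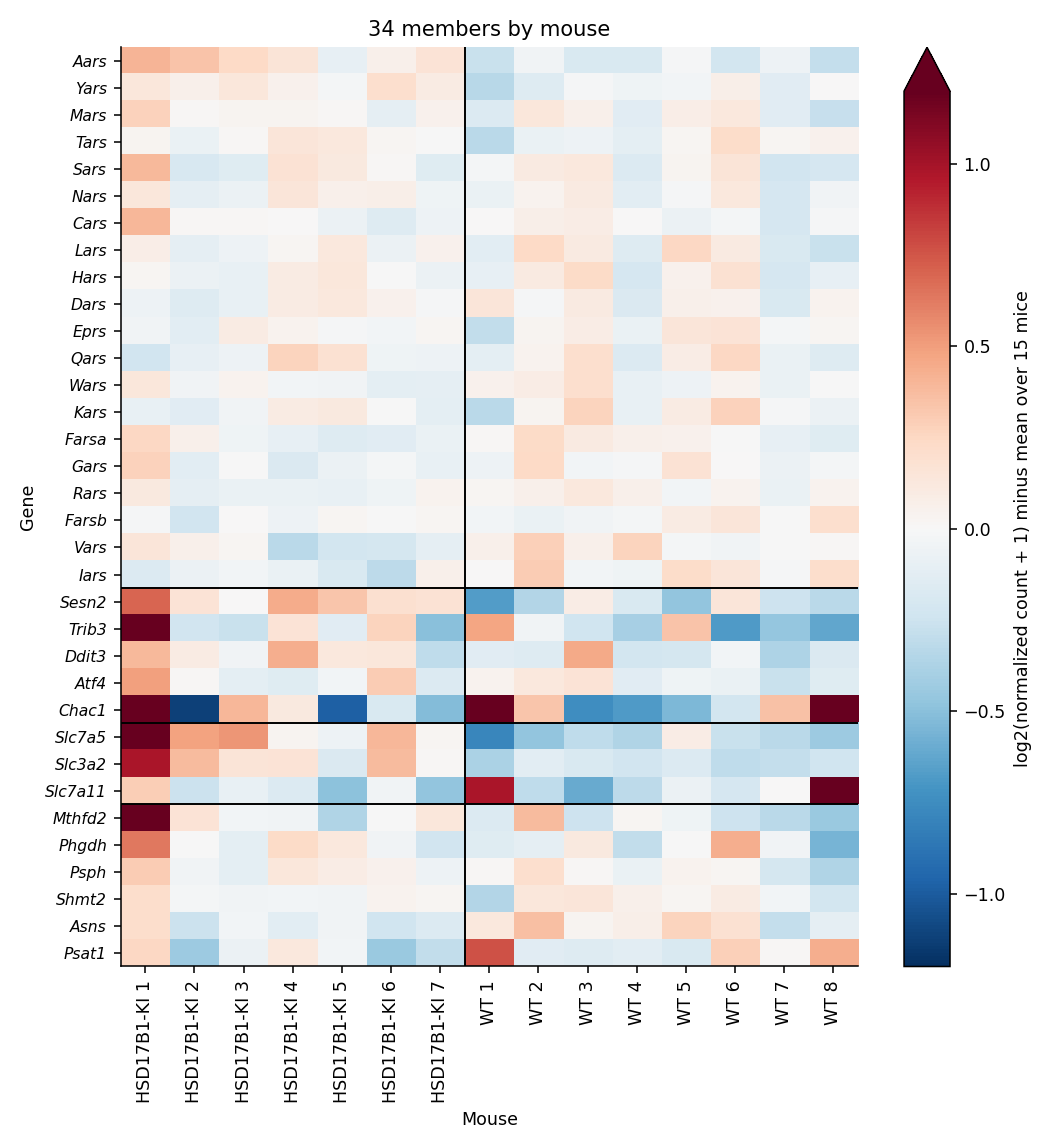
Log2(normalized count + 1) minus the mean over the 15 mice (colour, red above and blue below the mean) for the 34 genes (rows) in each mouse (columns). Values above 1.2 have the darkest red. The column of HSD17B1-KI 1 is red through most of the lower blocks, whereas the block of synthetases at the top has pale colours in both genotypes.

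Slc7a11, the cystine importer that feeds glutathione synthesis, Psat1 and Chac1 had their highest WT values in WT 1 and WT 8. Slc7a11 had 284, 355 and 490 normalized counts in HSD17B1-KI and 263, 363 and 1332 in WT, and the highest values were those of WT 8 (1332) and WT 1 (789). Psat1 was likewise highest in WT 1 (1774) and WT 8 (1408), and Chac1 stood at 91.6 in both, after HSD17B1-KI 1 with 103. These 2 ovaries also had the highest scores of 4 oviduct markers (5.48 in WT 1 and 5.24 in WT 8), with Ovgp1, an oviduct glycoprotein, at 203321 and 127890 normalized counts. The summed oviduct markers ranged from 138 to 21795 in HSD17B1-KI and from 150 to 222613 in WT, and no marker was at 0 in any mouse. Without WT 1 and WT 8 the log2 fold change with limma-trend changed from -0.33 to 0.07 for Slc7a11, from -0.24 to 0.12 for Chac1 and from -0.24 to -0.08 for Psat1. With all 15 mice and the oviduct score as a covariate it was -0.18 for Slc7a11, -0.01 for Chac1 and -0.18 for Psat1, so that the sign stayed and the values were closer to 0. None of the 3 genes was called in any of these analyses.

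**Figure D5:**
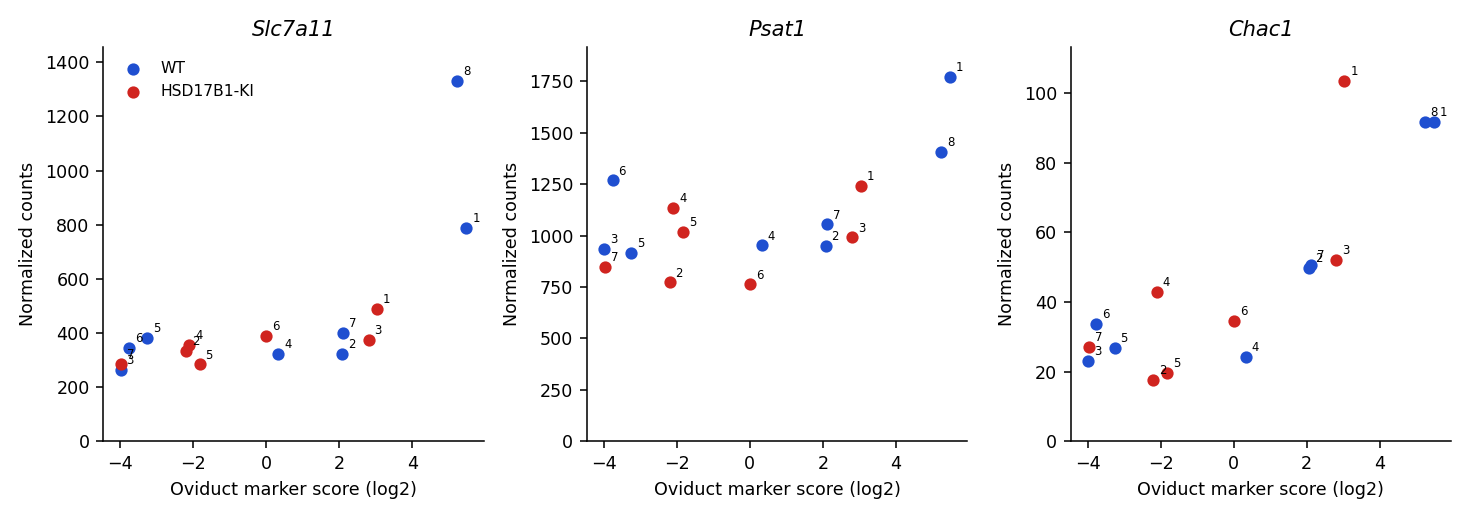
Normalized counts (y axis, from 0) of Slc7a11, Psat1 and Chac1 against the mean score of 4 oviduct markers (x axis, log2 scale, centred on the 15 mice), with 1 numbered point per mouse. WT 1 and WT 8, with scores of 5.48 and 5.24, have the highest counts of Slc7a11 and Psat1.

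Markers of several other cell types lay mostly on one side between the genotypes. Of 5 theca and interstitial cell markers, 5 had a log2 fold change above 0 and 2 had an unadjusted p under 0.05 (Insl3 and Aldh1a1). After adjustment, limma-trend called 1 of the 5 higher, edgeR called 1 and DESeq2 called 2 higher, beside 0.209% (limma-trend) and 1.59% (DESeq2) of all genes. Their summed level was 139279 to 313389 normalized counts in HSD17B1-KI and 81939 to 154750 in WT, with no marker at 0. HSD17B1-KI 5, the lowest of its group in Aars, Slc7a5 and Slc3a2, had the lowest theca score of the group (-1.15), and HSD17B1-KI 1, the highest in all 4 called genes, had the highest (1.22). HSD17B1-KI 4 also had a low theca score (-0.98) but the second highest Sesn2 of the group (1611), and HSD17B1-KI 7, with a high score (1.01), had lower Slc7a5 and Slc3a2 (9436 and 13408) than HSD17B1-KI 4 (9504 and 14842). Of 5 adipose markers, 4 were lower and 1 (Plin1) was higher, each with an unadjusted p under 0.05, and their summed level was 2306 to 9312 in HSD17B1-KI and 2478 to 10254 in WT. Of 4 smooth muscle markers, 4 were below 0 with a median log2 fold change of -0.44, 2 of them with an unadjusted p under 0.05, and their summed level was 29132 to 55768 in HSD17B1-KI and 33234 to 55692 in WT. Of 4 surface epithelium markers, 4 were below 0 (median -0.25, 1 with an unadjusted p under 0.05), and their sum was 6401 to 10467 against 7441 to 17685. All 6 luteal markers were above 0 (median 0.44, 0 with an unadjusted p under 0.05), with sums of 92044 to 173566 against 47247 to 212300. Granulosa markers were above 0 in 5 of 6 (median 0.28, 0 with an unadjusted p under 0.05). Their sums overlapped, at 70543 to 203299 in HSD17B1-KI (median 171358) and 82028 to 186459 in WT (median 104988). No granulosa or oocyte marker was at 0 in any ovary. The part of these cells in the results was not tested, and in whole ovaries fewer cells of a type and less RNA per cell cannot be told apart.

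Both directions were found among the 8 genes whose ATF4 element core is printed above. Trib3 (0.43), Yars (0.18) and Tars (0.07) had a log2 fold change above 0, and the lowest were Slc7a11 (-0.33), Chac1 (-0.24) and Iars (-0.21). With all mice, none of these 8 genes was called by limma-trend, edgeR or DESeq2. Some of the values rested on few mice. With limma-trend, Trib3 was at 0.09 without HSD17B1-KI 1, and Slc7a11 and Chac1 were at 0.07 and 0.12 without WT 1 and WT 8. Sesn2 and Slc3a2, called by DESeq2, did not hold these letters in their windows. The only window of Slc3a2 belongs to a start inside the annotated gene, with its upstream bases at chr19:8713898-8714147. The 5′ end of the gene, at 8723369, was thus not searched.

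Genes of the neighbouring pathways were read from the same analysis, and limma-trend and edgeR called 0 genes in each of the 7 lists. Of 20 mitochondrial synthetase and amidotransferase genes, 14 had a log2 fold change above 0, with a median of 0.06, and DESeq2 called 0. One had an unadjusted p under 0.05, Gatb, a subunit of the mitochondrial glutamyl-tRNA amidotransferase, with 1950 ± 330 normalized counts (SD, n = 7) against 1505 ± 185 (SD, n = 8) and an adjusted p of 0.0538 with DESeq2. The others with the highest and lowest values were Lars2 (0.20), Mars2 (-0.19) and Wars2 (-0.09). A list of 6 genes joined the scaffold of the synthetase complex with editing genes. Of these, 5 were below 0, with a median of -0.02, and 0 had an unadjusted p under 0.05 or were called by DESeq2. The lowest were Eef1e1 (-0.13) and Aimp2 (-0.03) and the highest Aimp1 (0.08) and Aarsd1 (-0.0065).

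Of 20 tested regulators of the integrated stress response, 10 were above and 10 below 0, with a median of 0.0039, 0 genes at an unadjusted p under 0.05 and 0 called by DESeq2. Cebpb, a C/EBP partner of ATF4, was highest (0.39) and was followed by Ppp1r15a (0.34), the eIF2 phosphatase subunit, while Stc2 (-0.31) and Nupr1 (-0.28) were lowest. Of 20 endoplasmic reticulum chaperones and unfolded protein response genes, 17 were below 0, with a median of -0.08 beside -0.02 for all genes, and DESeq2 called 0. Calr, the calcium-binding chaperone calreticulin, was the only one with an unadjusted p under 0.05. It had 33166, 37646 and 43647 normalized counts in HSD17B1-KI and 39575, 42812 and 48028 in WT, and its adjusted p was 0.342 with limma-trend and 0.155 with DESeq2. Sdf2l1 (-0.31) and Creld2 (-0.22) were the lowest of this list and Ern1 (0.18) and Sel1l (0.15) the highest.

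The other 23 amino acid transporters had the most calls of the lists. An unadjusted p under 0.05 was found for 1 higher and 4 lower genes with limma-trend, beside 5.36% and 4.64% of all genes. DESeq2 called Slc7a8 higher and Slc1a5 and Slc3a1 lower, beside 1.59% and 0.718% of all genes. The median of the list was -0.05. Slc7a8 encodes LAT2, another light chain that pairs with the product of Slc3a2. It had 9613, 16461 and 24433 normalized counts in HSD17B1-KI and 7926, 10331 and 11790 in WT, and 6 of 7 HSD17B1-KI mice were above all WT mice. Its log2 fold change was 0.73 ± 0.16 (SE), with an adjusted p of 0.0878 with limma-trend and 0.00170 with DESeq2, and DESeq2 called it in 15 of 15 analyses that left out 1 mouse. As in Slc7a5 and Slc3a2, the lowest HSD17B1-KI mouse was number 5. The heavy chain Slc3a2 and the light chains Slc7a5 and Slc7a8 were thus each higher with DESeq2. Slc7a11, whose product also pairs with that of Slc3a2, was not called and had a log2 fold change of -0.53 (adjusted p = 0.466) with DESeq2. Without WT 1 and WT 8, its highest mice, this value was 0.08.

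Slc1a5, the glutamine importer ASCT2, had 944, 1749 and 2128 normalized counts in HSD17B1-KI and 1965, 2238 and 5514 in WT, and 6 of 7 HSD17B1-KI mice were below all WT mice. WT 1 (5514) and WT 8 (4470), the ovaries with the highest oviduct scores, were among the highest. Its log2 fold change was -0.90 ± 0.26 (SE), with an adjusted p of 0.192 with limma-trend and 0.0293 with DESeq2, and it was called in 9 of 15 analyses without 1 mouse. Slc3a1, the heavy chain of the transporter of cystine and dibasic amino acids, had low counts of 32.5, 33.3 and 41.4 against 39.1, 60.9 and 69.6, and 5 of 7 HSD17B1-KI mice were below all WT mice. Its log2 fold change was -0.60 ± 0.16 (SE), with an adjusted p of 0.145 with limma-trend and 0.0112 with DESeq2. With DESeq2 the heavy chain transcripts Slc3a2 and Slc3a1 thus differed in opposite directions.

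Of 24 other serine, glycine and folate genes, 11 were above and 13 below 0, with a median of -0.02. An unadjusted p under 0.05 was found for 2 higher and 1 lower gene, and DESeq2 called 1. This was Gcsh, the lipoyl carrier of the glycine cleavage system. It had 3219, 3695 and 5583 normalized counts in HSD17B1-KI and 2525, 3051 and 3674 in WT, with a log2 fold change of 0.42 ± 0.12 (SE). The adjusted p was 0.194 with limma-trend and 0.0428 with DESeq2, and 0.117 with DESeq2 without HSD17B1-KI 1, its highest mouse. Of 20 tested genes of amino acid sensing to mTORC1, 14 were above 0, with a median of 0.08, and DESeq2 called 0. Mlst8 (0.19), a subunit of the mTOR complexes, and Flcn (0.17) had an unadjusted p under 0.05, Deptor (0.22) was the highest, and Rragd (-0.20) and Sesn3 (-0.16), a relative of Sesn2, were the lowest.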

How the data were processed

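Ovarian mRNA of 15 females (7 HSD17B1-KI, 8 WT) was sequenced from stranded libraries. According to the paper's methods and the labels, reads were demultiplexed with bcl2fastq 2.20, trimmed with Skewer and aligned to mm10 with STAR 2.7.3. The counting program, annotation release and strand setting are not given in the sources used here. The authors deposited the signal of 27907 genes as reads divided by 1 size factor per library. Whole reads were recovered for 100% of the values (tolerance 0.01) and used for edgeR 4.0.16 and DESeq2 1.42.0. The study also used DESeq2, in a version of its own.

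Genes averaging 2 or more normalized counts were compared with limma 3.58.1 (trend) on log2 values with a pseudocount of 1 and genotype only, which understates the change of low genes. The p-values judge the difference of the genotypes against the spread between mice. The tests were also run on simulated independent counts, which held no outlying mouse and no differences in tissue composition. Alternatives were another pseudocount, filter, scaling or test, a replicate block, leaving out mice and the oviduct score. The members, lists and markers were chosen with earlier results of these data known. Full values were given for members with an unadjusted limma p or an adjusted DESeq2 p under 0.05. From each list, genes called by limma-trend or DESeq2 were named, otherwise up to 2 with the highest and 2 with the lowest fold change at a mean of at least 10. Other genes with an unadjusted p under 0.05 were named after their values were seen. Positions and exonic lengths came from GENCODE M21, which is of build GRCm38 (mm10), and Castor1, Castor2 and Samtor were not found by symbol. The promoter window of 1 member is not reported here and was left out of the motif counts. The calculations used R 4.3.3, Python 3.11.15, NumPy 2.4.6 and pandas 2.3.3.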

Additional observations from a re-analysis of the deposited data

Results flagged for a closer look

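In each genotype, the highest or lowest mouse was compared with its nearest neighbour for the 34 genes and both mean scores, and 12 of 72 comparisons had a gap to the neighbour that exceeded the 95% limit of Dixon's test, where chance gives about 5%. HSD17B1-KI 1 was the mouse that stood apart in 10 of them. It was high in the transporter genes Slc7a5 (25436 normalized counts, the next mouse of the group at 13466) and Slc3a2 (26113, next 17244), in the stress genes Trib3 (796, next 190) and Chac1 (103, next 52.1), and in the mitochondrial folate genes Mthfd2 (2665, next 1281) and Shmt2 (3780, next 3373). The synthetases Cars (2485, next 1911), Gars (5481, next 4527) and Mars (4215, next 3588) were high in the same mouse, as was the mean score of the amino acid and stress genes (0.774, next 0.096). The other 2 were Farsb, which was low in HSD17B1-KI 2 (2200, next 2477), and Ddit3, which was high in WT 3 (2111, next 1513). The values of 1 mouse are not independent of each other, and what set HSD17B1-KI 1 apart was not tested.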

How the results depend on the processing

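The counts of DE genes depended on the test. DESeq2 called 314 genes higher and 142 lower, 314 and 141 without replacement of outlying counts, and 193 and 51 without WT 1 and WT 8, beside 45 and 1 with limma-trend. Among the 34 genes DESeq2 called 1 synthetase and 3 of the others, with or without replacement, and 1 and 0 without WT 1 and WT 8, where the log2 fold changes of Sesn2, Slc7a5 and Slc3a2 with DESeq2 were 0.46, 0.76 and 0.53. With limma-trend, all genes gave 27 higher with no filter and 9 higher and 0 lower without WT 1 and WT 8, and lower genes numbered 3 with a mean of at least 10 and 2 with a pseudocount of 10. edgeR called 2 lower. Leaving out 1 mouse at a time gave 6 to 123 higher and 0 to 16 lower genes with limma-trend, and 220 to 424 and 52 to 250 with DESeq2, with the most of the latter without HSD17B1-KI 5. In the same analyses 0 to 1 synthetases and 0 to 1 other genes were called with limma-trend, the 1 of each without HSD17B1-KI 5, and 1 to 2 synthetases and 3 others with DESeq2. The cause of these differences was not tested.

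The mice of the genotypes share numbers, but same-numbered mice did not deviate together (correlations from -0.55 to 0.55), and the labels give no shared litter or day. With the replicate number as a block, WT 8 left out, limma-trend called 0 genes higher and 0 lower over all genes and 0 of the 34, and the difference in the score of the amino acid and stress genes was 0.16.

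Of 1428 log2 fold changes of the 34 genes under the alternatives, 1281 kept direction and side of the threshold, 72 newly passed it (in Aars, Sesn2, Slc7a5, Slc3a2 and Yars) and 75 changed sign, in 11 genes that had an adjusted p of 0.728 or higher. Without WT 1 and WT 8, limma-trend and DESeq2 gave 0.018 and 0.015 for Dars, -0.023 and -0.032 for Hars, -0.053 and -0.063 for Lars, 0.12 and 0.29 for Chac1, 0.072 and 0.081 for Slc7a11 and -0.050 and -0.051 for Shmt2. With the oviduct score as a covariate Hars was at -0.016 and Lars at -0.018, under the replicate block Hars was at -0.0045 and Lars at -0.026, and with upper quartile scaling Dars was at 0.00065. Leaving out 1 mouse with limma-trend or DESeq2 moved Cars from -0.025 to 0.073, Dars from -0.039 to 0.013, Eprs from -0.060 to 0.0085, Hars from -0.024 to 0.042, Lars from -0.035 to 0.048, Qars from -0.066 to 0.021, Sars from -0.0067 to 0.10, Chac1 from -0.58 to 0.00099, Trib3 from -0.0049 to 0.87, Slc7a11 from -0.63 to 0.075 and Shmt2 from -0.012 to 0.064. The alternatives without WT 1 and WT 8, with the oviduct score, without replacement of outlying counts and with DESeq2 without 1 mouse were added after the data were seen. Depth limits Chac1 most, which had 16 to 96 reads per mouse.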
